A study of Mus musculus with 24 samples.

Results

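Bone morphogenetic protein (BMP) signalling in mouse skin and skin wounds was followed through 9 genes: the ligands Bmp2, Bmp4, Bmp5, Bmp6 and Bmp7, the secreted antagonists Nog, Grem1 and Chrdl1, and the target gene Id1. They were taken by symbol from a list of the best known members of the pathway, and all 9 were among the 18368 genes of the expression table. RNA was sequenced from whole skin of CD1 mice, an outbred stock, in 24 libraries from 12 mice. Each mouse gave skin of 1 site, abdomen, back or cheek, as a wound and as adjacent unwounded skin, so each of the 6 groups held 4 libraries. The mice were 7 weeks old with hair follicles in the resting phase (telogen) per the labels, wounds were full-thickness punches 2 mm wide taken again at day 3, and abdomen and back mice carried a pair of wounds where cheek mice carried 1. All mice were shaved under anaesthesia and analgesia before wounding. Values are FPKM (fragments scaled to transcript length and to the mapped fragments of the library), a level per length that can be compared between genes, and differences are given on the scale log2(FPKM + 0.5).

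BMP ligands are secreted dimers of the TGF-beta family that bind paired type I and type II receptors, which phosphorylate Smad1, Smad5 and Smad9. These enter the nucleus with Smad4 and switch on targets of which the Id genes are the best known. Secreted antagonists bind the ligands outside the cell and keep them from their receptors. In skin, BMPs made by dermis, fat and follicle hold hair follicle stem cells at rest, whereas noggin and other antagonists let follicles enter growth, and in the epidermis BMP signalling accompanies differentiation.

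The promoters of Bmp4 and Grem1 are shown here as an example of each kind of secreted member. Bmp4 was the ligand with the largest fall in wounds. Of Nog, Grem1 and Chrdl1, Grem1 had the highest mean over the unwounded libraries. RefSeq promoters (build GRCm38.p6) were matched for 4 of the 9 genes (Bmp4, Bmp5, Bmp6 and Grem1), and the 250 bases before the start site are printed 5′ to 3′ on the strand of the gene. The Bmp4 stretch is chr14:46390670-46390919 (minus strand) and the Grem1 stretch is chr2:113758649-113758898 (minus strand), and capitals mark the motifs found.
Bmp4: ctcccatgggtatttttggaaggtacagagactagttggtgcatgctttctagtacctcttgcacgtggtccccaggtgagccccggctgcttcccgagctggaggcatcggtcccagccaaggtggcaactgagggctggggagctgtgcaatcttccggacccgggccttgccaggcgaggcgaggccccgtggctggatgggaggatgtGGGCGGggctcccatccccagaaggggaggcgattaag
Grem1: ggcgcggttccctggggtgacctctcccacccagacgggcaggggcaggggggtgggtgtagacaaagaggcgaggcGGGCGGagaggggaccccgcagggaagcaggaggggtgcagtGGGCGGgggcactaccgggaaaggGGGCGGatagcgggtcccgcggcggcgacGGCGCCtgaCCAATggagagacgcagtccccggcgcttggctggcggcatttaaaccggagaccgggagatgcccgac
The 4 motifs searched, on both strands, were the TATA box TATAAA, the CCAAT box, the GC box GGGCGG and the palindrome GGCGCC. The Bmp4 stretch held a single GGGCGG, which began 38 bases before the start site. In the Grem1 stretch GGGCGG began 173, 131 and 107 bases before the start site, GGCGCC 78 bases before it and CCAAT 69 bases before it, and no motif overlapped another. Among 32851 promoters of the same length, GGGCGG was present in 32.7%, CCAAT in 33.9%, TATAAA in 12.4% and GGCGCC in 9.59%. These matches describe letters only.

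On the GRCm38 build, Bmp2 lies at chr2:133552159-133562896 (plus strand), Bmp4 at chr14:46383525-46390669 (minus), Bmp5 at chr9:75775365-75900316 (plus), Bmp6 at chr13:38345716-38500314 (plus) and Bmp7 at chr2:172868012-172940321 (minus). Nog lies at chr11:89300638-89302559 (minus), Grem1 at chr2:113748675-113758648 (minus), Chrdl1 at chrX:143285674-143394263 (minus) and Id1 at chr2:152736251-152737410 (plus). Exons of Bmp4, Bmp5 and Bmp6 overlap exons of Gm15217, Gm26903 and Txndc5 on the opposite strand. Whether the libraries kept strand is not given in the sources used here, so the values of these 3 genes are uncertain to that extent. The other members share no exon with another gene.

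FPKM summed to between 490830 and 608888 per library, with 15781 to 16577 genes above 0. Without counts, sequencing depth cannot be read from FPKM. Markers of epidermis, fibroblasts, muscle, fat, endothelium and immune cells were present in every group, as whole skin would have. Markers of the growing hair follicle (Krt25, Krt71, Krt35, Krt85 and Shh) summed to 3331 FPKM in the unwounded cheek library of mouse 4, to 52.7 in that of back mouse 2 and to 24.6 in that of cheek mouse 3, against at most 1.66 in the other 9 unwounded libraries, although the labels place all mice in telogen. The value without these 3 mice, an alternative chosen after seeing the data, is given where leaving them out changed a call described here for a named gene.

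Wounding lowered most of the family. Averaged over the sites, 8 of the 9 genes fell (limma, Benjamini-Hochberg adjusted p under 0.05), all of them ligands and antagonists, and Id1 was the exception. Of the 8, Bmp5 passed the filter on low values mainly through its unwounded libraries, which favours a fall. The background was high, since 29.4% of the 14423 genes tested were called lower and 33.3% higher in the same comparison. The fall was largest for Bmp4, and 2 genes, Bmp4 and Nog, were lower in the wound of 12 of 12 mice, as were 9.81% of all genes. Over all genes, 4798 were called higher and 4247 lower, against 4442 and 4797 after median-ratio scaling and 3919 and 5445 after quantile normalization, and the 8 members fell under both scalings. Quantile normalization also moved the split in abdomen, from 2437 higher and 2304 lower to 2127 and 3141, and in cheek, from 2840 and 2432 to 2526 and 3316.

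Site by site, 5 members were called in each site. In abdomen, Bmp2, Bmp4, Bmp5 (with the limit given above), Grem1 and Chrdl1 fell, where 16% of all genes were called lower. In back, Bmp4, Bmp6, Bmp7 and Nog fell, where 17.9% of genes were called lower, and Id1 rose, where 28% were called higher. In cheek, Bmp2, Bmp4, Bmp6, Bmp7 and Nog fell, where 16.9% were called lower. Bmp4 alone was called lower at all 3 sites, as were 7.15% of all genes. At the stricter threshold of 0.001 that the study set for wounds, 5 members were called on average over the sites (33.4% of all genes) but 0 for abdomen alone (4.96%), and 2 each in back (14.4%) and cheek (8.69%).

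**Figure D1:**
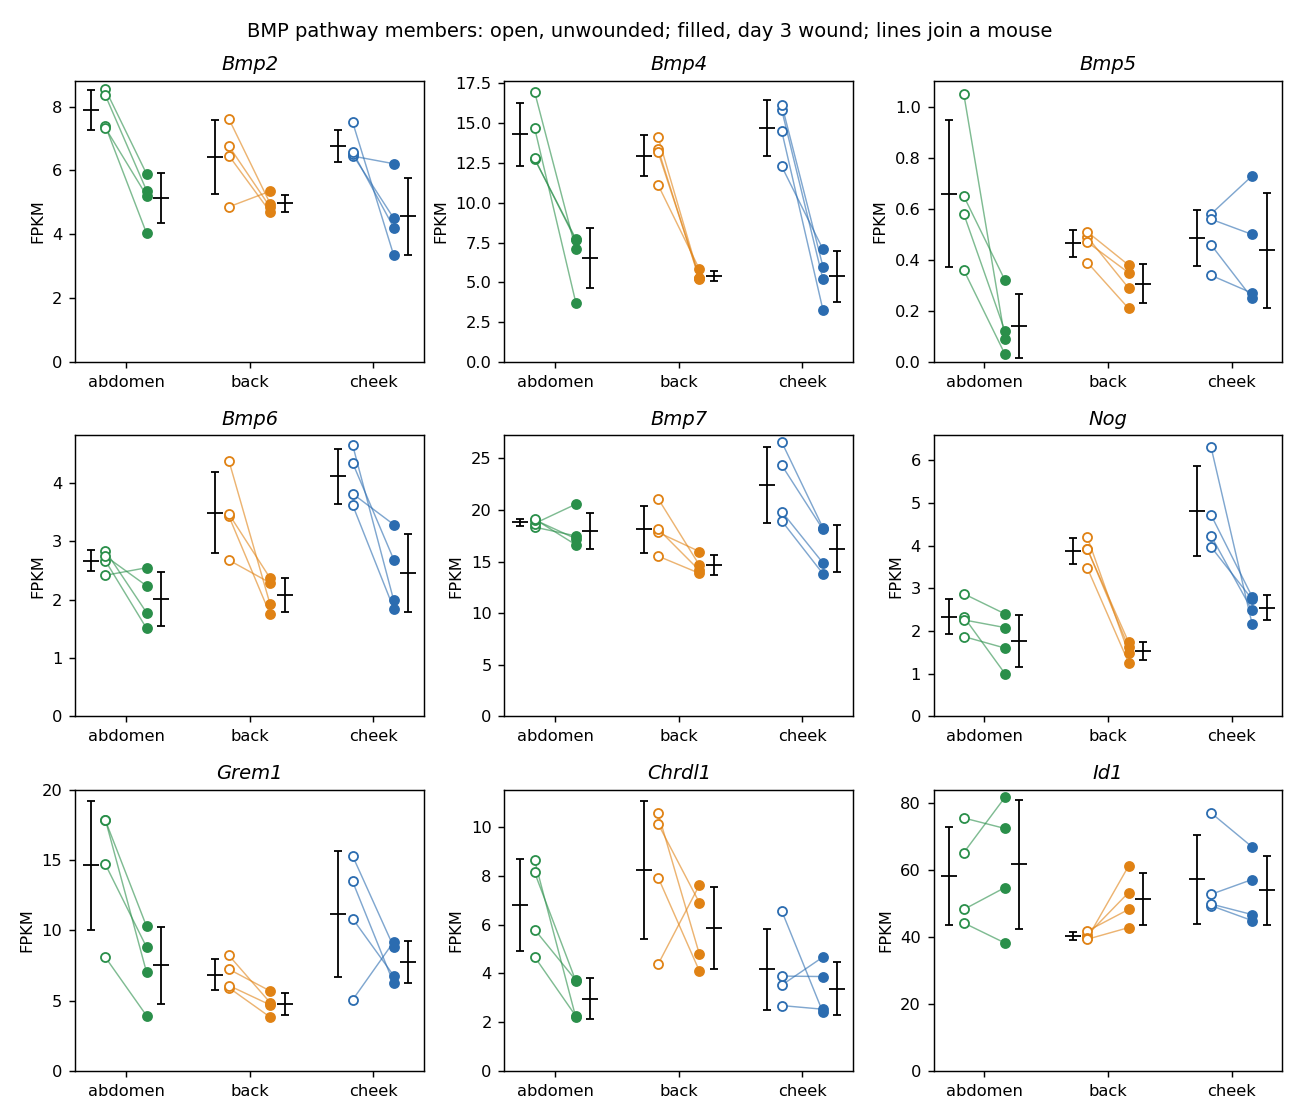
FPKM of the 9 genes in every library (linear axes from 0), with open circles for unwounded skin, filled circles for day 3 wounds, lines joining a mouse, and black bars for the mean ± SD of 4 mice. All 12 lines of Bmp4 and of Nog go down, from at least 11.1 to at most 7.74 FPKM for Bmp4, whereas those of Id1 go either way.

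Among the ligands, Bmp4 held the clearest change. In unwounded skin it stood at 14.7, 12.8, 17.0 and 12.8 FPKM in abdomen mice 1 to 4, at 11.1, 14.1, 13.4 and 13.2 in back and at 12.3, 15.8, 14.5 and 16.2 in cheek. In the wounds of the same mice it stood at 3.73, 7.74, 7.07 and 7.64 FPKM in abdomen, at 5.83, 5.27, 5.19 and 5.30 in back and at 7.08, 5.19, 3.27 and 5.99 in cheek. Every wound library lay below every unwounded library, whatever the site. The share of all genes whose wound and unwounded libraries stood apart is not given, for Bmp4 or for the members below. Averaged over the sites Bmp4 fell by 1.23 ± 0.11 (SE) on the log2 scale, a 2.35-fold drop (limma adjusted p = 1.87e-06), and the exact permutation test of sign changes over 12 mice gave p = 0.000488 (two-sided), the smallest it can give. By site it fell by 1.11 ± 0.20 in abdomen (adjusted p = 0.00158), by 1.18 ± 0.20 in back (adjusted p = 0.000504) and by 1.41 ± 0.20 in cheek (adjusted p = 0.00022). The calls held in every fit that left out a mouse.

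Bmp2, the closest relative of Bmp4 and like it a ligand of the type I receptors Bmpr1a and Bmpr1b, fell less. It stood at 7.39, 8.54, 8.35 and 7.33 FPKM in unwounded abdomen, at 4.86, 7.61, 6.76 and 6.46 in back and at 6.45, 6.5, 7.52 and 6.59 in cheek. In wounds it stood at 4.03, 5.89, 5.37 and 5.21 FPKM in abdomen, at 5.35, 4.96, 4.85 and 4.70 in back and at 6.21, 4.5, 3.34 and 4.21 in cheek. Wound and unwounded libraries did not overlap in abdomen or cheek but did in back, where mouse 1 had the lowest unwounded value and was the only mouse of 12 with more Bmp2 in its wound. The average fall was 0.49 ± 0.08 (adjusted p = 0.000259; exact permutation p = 0.00146, lower in 11 of 12 mice). It fell by 0.59 ± 0.15 in abdomen (adjusted p = 0.00901) and by 0.55 ± 0.15 in cheek (adjusted p = 0.0112), and differed by -0.33 ± 0.15 in back (adjusted p = 0.0833). The cheek call was lost with the 8 cheek libraries fitted alone (adjusted p = 0.053), without cheek mouse 3 (-0.38, adjusted p = 0.0736) and without the 3 mice with growing follicle markers (-0.27, adjusted p = 0.272). In back, Bmp2 passed the test after median-ratio scaling (adjusted p = 0.0274), after quantile normalization (adjusted p = 0.022) and without back mouse 1 (-0.48, adjusted p = 0.026).

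Bmp5, Bmp6 and Bmp7 form a second branch of ligands with related sequences. Bmp7 was the most abundant ligand, between 13.8 and 26.6 FPKM in every library, and Bmp5 the least, between 0.03 and 1.05 FPKM.
Bmp7 stood at 18.3, 18.7, 19.0 and 19.1 FPKM in unwounded abdomen, at 17.8, 21.1, 18.1 and 15.5 in back and at 19.8, 18.9, 24.3 and 26.6 in cheek. Its wound levels were 17.5, 20.6, 17.2 and 16.6 FPKM in abdomen, 15.97, 14.7, 14.1 and 13.9 in back and 14.9, 13.8, 18.1 and 18.3 in cheek. Groups overlapped in abdomen and back, while in cheek each wound was below all unwounded libraries. Bmp7 fell by 0.27 ± 0.04 on average (adjusted p = 0.000198; exact permutation p = 0.00146, lower in 11 of 12 mice), by 0.45 ± 0.08 in cheek (adjusted p = 0.000854) and by 0.29 ± 0.08 in back (adjusted p = 0.00854), and the difference in abdomen was -0.07 ± 0.08 (adjusted p = 0.534). The back call was lost without back mouse 2 (-0.22, adjusted p = 0.0609) and without the 3 mice with growing follicle markers (adjusted p = 0.072).

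Bmp6 stood at 2.67, 2.42, 2.84 and 2.75 FPKM in unwounded abdomen, at 2.68, 4.38, 3.43 and 3.47 in back and at 3.82, 4.35, 4.66 and 3.63 in cheek. In wounds it stood at 1.51, 2.55, 1.78 and 2.24 FPKM in abdomen, at 2.29, 1.92, 1.75 and 2.37 in back and at 3.29, 2.69, 1.99 and 1.85 in cheek. Wounds and unwounded skin were apart in back and cheek and overlapped in abdomen. On average Bmp6 fell by 0.54 ± 0.10 (adjusted p = 0.000319), with falls of 0.62 ± 0.17 in back (adjusted p = 0.00927) and 0.66 ± 0.17 in cheek (adjusted p = 0.00806), and a difference of -0.35 ± 0.17 in abdomen (adjusted p = 0.125). The back call was lost without back mouse 2 (-0.49, adjusted p = 0.0609) and the cheek call without cheek mouse 3 (-0.54, adjusted p = 0.0517). Without all 3 mice with growing follicle markers the adjusted p was 0.0501 in back and 0.196 in cheek, while the average fall passed the test (-0.41, adjusted p = 0.00737).

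Bmp5 was near the filter on low values and its differences depend on the pseudocount. It passed that filter over the 24 libraries mainly through its unwounded values, and did not pass among the wounds alone. Such a selection favours a fall, and the calls of Bmp5 carry that limit. It stood at 0.58, 1.05, 0.36 and 0.65 FPKM in unwounded abdomen and at 0.12, 0.09, 0.03 and 0.32 in the wounds, which lay below all unwounded abdomen libraries. The back libraries held 0.39 to 0.51 FPKM in unwounded skin and 0.21 to 0.38 in wounds, and the cheek libraries 0.34 to 0.58 and 0.25 to 0.73. Bmp5 fell by 0.85 ± 0.15 in abdomen (adjusted p = 0.00144), and by 0.40 ± 0.09 on average (adjusted p = 0.00139). The abdomen difference was -1.72 with a pseudocount of 0.1 FPKM and -0.53 with a pseudocount of 1 FPKM. Differences of -0.26 ± 0.15 in back and -0.09 ± 0.15 in cheek did not pass the test (adjusted p = 0.174 and 0.654), except in back after quantile normalization (-0.42, adjusted p = 0.0432).

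**Figure D2:**
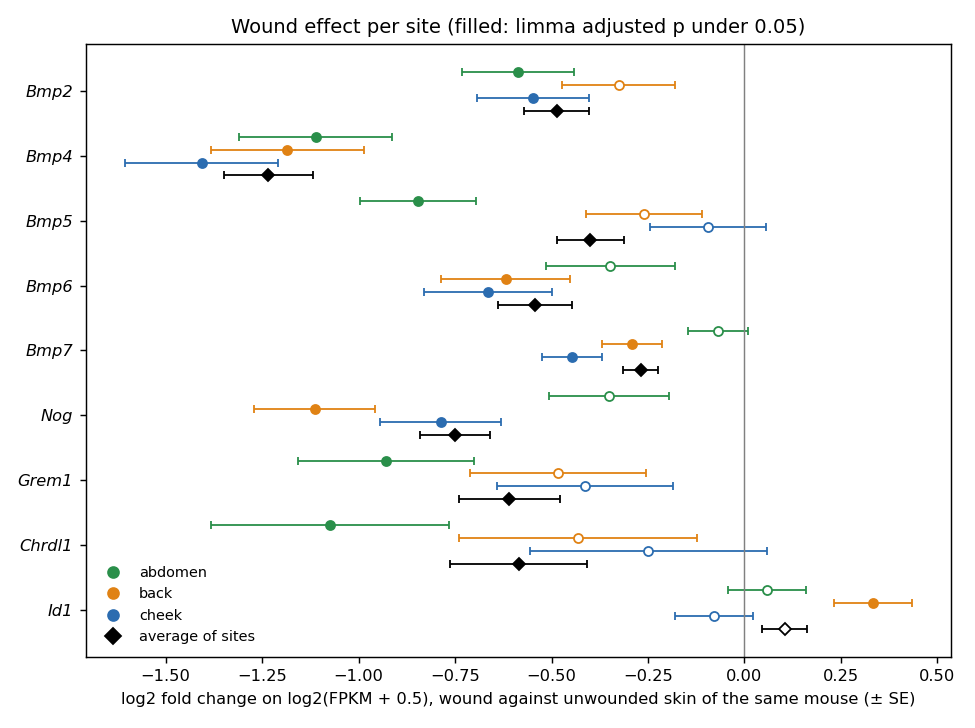
Differences between wound and unwounded skin of the same mouse on log2(FPKM + 0.5) for each gene (points, with bars for the SE from limma), per site and averaged over the sites (diamonds), filled where the adjusted p was under 0.05. All points of Bmp4 are filled and lie between -1.11 and -1.41, and the only filled point above 0 is Id1 in back.

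Summed over the 5 genes, ligand RNA was lower in wounds at every site. The sum was 44.3 ± 2.2 FPKM (SD, n = 4) in unwounded abdomen and 31.8 ± 4.1 in its wounds. In back it was 41.5 ± 4.7 and 27.4 ± 1.6, and in cheek 48.5 ± 4.9 and 29.1 ± 2.7. No wound library reached the lowest unwounded library of any site, at 37.0 FPKM, the highest wound value being 36.8. Bmp4 made up 32.2%, 31.3% and 30.4% of the ligand sum in unwounded abdomen, back and cheek and 20.3%, 19.7% and 18.3% in wounds. The share of Bmp7 was 42.5%, 43.8% and 46.1% in unwounded skin and 56.9%, 53.5% and 56.2% in wounds. These sums and shares describe RNA and were not tested.

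The antagonist sum (Nog, Grem1 and Chrdl1) was 23.8 ± 4.1 FPKM in unwounded abdomen, 19.0 ± 2.8 in back and 20.2 ± 6.4 in cheek, and 12.3 ± 3.1, 12.2 ± 2.4 and 13.7 ± 2.0 in the wounds. Per FPKM of ligand it was 0.54 ± 0.11, 0.46 ± 0.08 and 0.42 ± 0.15 in unwounded abdomen, back and cheek and 0.39 ± 0.08, 0.44 ± 0.07 and 0.47 ± 0.06 in wounds, and these ranges overlapped between wound and unwounded skin at every site. The sum leaves out more abundant antagonists. Sostdc1, for example, had means of 46.4, 41.2 and 67.05 FPKM in unwounded abdomen, back and cheek. The ratio thus covers Nog, Grem1 and Chrdl1 only and is not the balance of all antagonists and ligands.

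**Figure D3:**
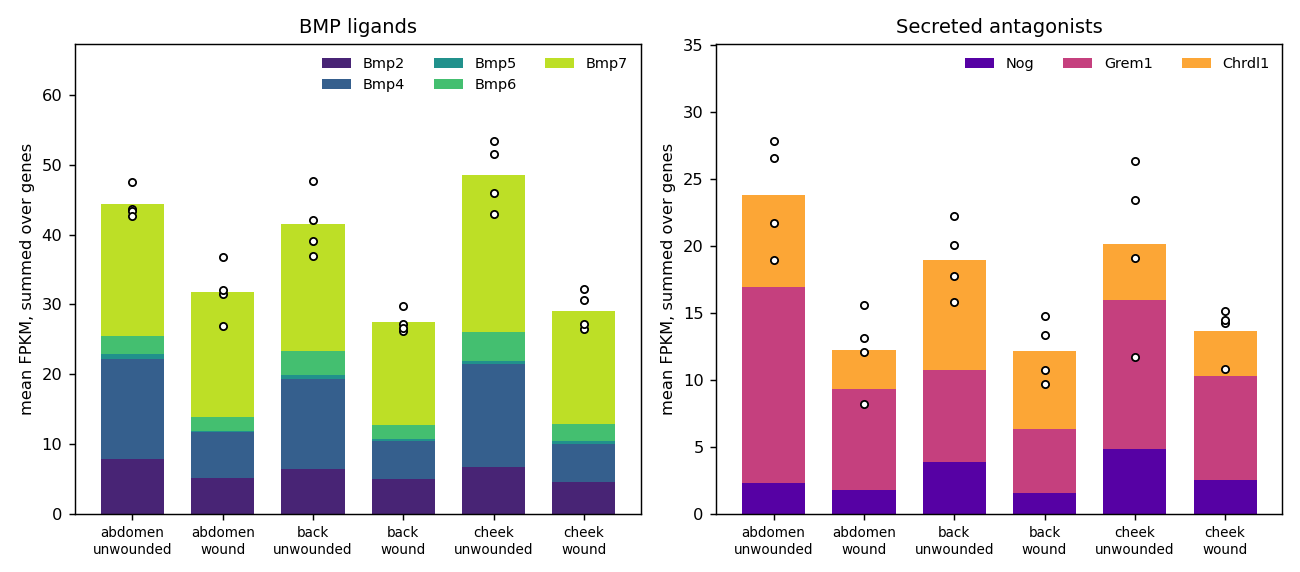
Mean FPKM of the 5 ligands (left) and the 3 antagonists (right), stacked by gene for the 6 groups of 4 libraries, with a circle for the summed FPKM of each library. Ligand sums fall from between 41.5 and 48.5 in unwounded skin to between 27.4 and 31.8 FPKM in wounds, and the band of Bmp4 narrows while that of Bmp7 keeps most of its height.

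Nog encodes noggin, which wraps around BMP dimers and blocks both receptor sites. Among the 9 genes it alone was called between unwounded sites, and 4.92% of 13956 genes were called in at least 1 pair of sites. Unwounded abdomen libraries held 2.33, 1.87, 2.26 and 2.87 FPKM, back libraries 4.19, 3.91, 3.47 and 3.92 and cheek libraries 4.72, 6.31, 4.23 and 3.97. Every back and cheek library lay above every abdomen library. Nog was higher in cheek than in abdomen by 0.90 ± 0.15 (adjusted p = 0.0109) and in back than in abdomen by 0.64 ± 0.15 (adjusted p = 0.0431), where 1.33% and 0.53% of all genes were called higher. Each separation gave p = 0.0286 in the exact permutation test of 4 against 4 libraries (two-sided), the smallest it can give. Cheek and back differed by 0.26 ± 0.15 (adjusted p = 0.323). With each mouse left out in turn, the cheek call held 12 of 12 times, but the back call was lost 9 of 12 times (highest adjusted p = 0.144, without abdomen mouse 2), as well as with no filter on low values (adjusted p = 0.0548), with the mouse number as a block (adjusted p = 0.0949) and without the 3 mice with growing follicle markers (adjusted p = 0.0825). The median of all genes was -0.12 in back minus abdomen and 0.14 in cheek minus back and came to 0.00 and 0.02 after median-ratio scaling, under which the differences of Nog were 0.75 for back and 0.89 for cheek against abdomen and both calls held. The back against abdomen split over all genes was 74 higher and 299 lower, against 77 and 135 after that scaling, and that of cheek against abdomen 186 and 172, against 106 and 172.

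Skeletal muscle RNA varied between the same libraries. The 5 muscle markers (Acta1, Ckm, Myh4, Tnnt3 and Mylpf), none of them at 0, summed to 13416, 434.1, 2293 and 12326 FPKM in the unwounded abdomen mice 1 to 4, to between 11973 and 18888 in back and to between 9727 and 19570 in cheek, and 0 of 5 was called between sites. Within abdomen, mice 2 and 3, with the lowest muscle sums, had the lowest Nog (1.87 and 2.26 FPKM), and mice 1 and 4, with muscle sums in the range of back and cheek, had 2.33 and 2.87 FPKM. In wounds the muscle sum was 1528 to 4625 FPKM in abdomen, 2805 to 3993 in back and 4223 to 5796 in cheek. The part of muscle in the Nog differences was not tested.

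In wounds Nog stood at 1.00, 1.60, 2.08 and 2.40 FPKM in abdomen, at 1.48, 1.74, 1.26 and 1.62 in back and at 2.80, 2.16, 2.48 and 2.74 in cheek. Back and cheek wounds were below all unwounded libraries of their site, and abdomen wounds overlapped with them although each was below its own mouse. Averaged over the sites Nog fell by 0.75 ± 0.09 (adjusted p = 1.36e-05; exact permutation p = 0.000488 over 12 mice). It fell by 1.11 ± 0.16 in back (adjusted p = 0.000129) and by 0.79 ± 0.16 in cheek (adjusted p = 0.002), and differed by -0.35 ± 0.16 in abdomen (adjusted p = 0.101). The response in back minus that in abdomen was -0.76 ± 0.22, which did not pass the test over all genes (adjusted p = 0.167), although without abdomen mouse 1 it did (-0.95, adjusted p = 0.0274).

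**Figure D4:**
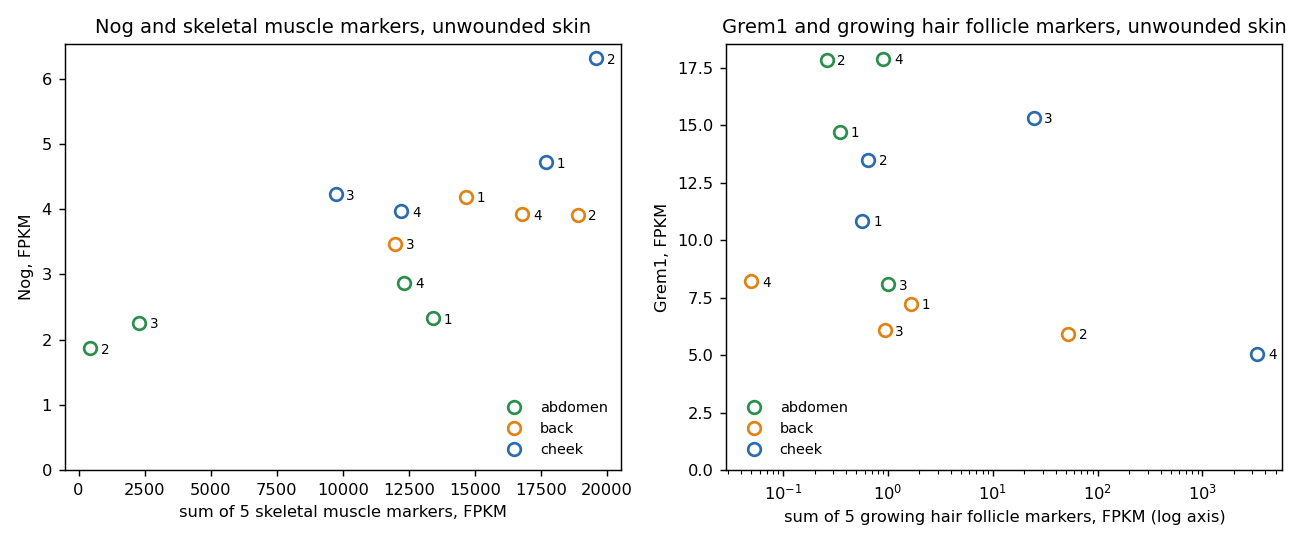
Unwounded libraries (numbers name the mouse within its site): left, Nog against the summed FPKM of 5 skeletal muscle markers; right, Grem1 against the summed FPKM of 5 growing hair follicle markers on a log axis. Abdomen mice 2 and 3 have the lowest muscle sums and the lowest Nog, at 1.87 and 2.26 FPKM. Abdomen mice 1 and 4, with muscle sums in the range of back and cheek, have 2.33 and 2.87 FPKM, below all back and cheek libraries. Cheek mouse 4, with follicle markers at 3331 FPKM, has the lowest Grem1 at 5.05 FPKM. Of the other libraries with raised follicle markers, back mouse 2 has the lowest Grem1 of back at 5.92 and cheek mouse 3 the highest of cheek at 15.3.

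Grem1 encodes gremlin, an antagonist of Bmp2, Bmp4 and Bmp7 made by fibroblasts of many organs. It stood at 14.7, 17.8, 8.09 and 17.9 FPKM in unwounded abdomen, at 7.24, 5.92, 6.08 and 8.22 in back and at 10.9, 13.5, 15.3 and 5.05 in cheek. In wounds it stood at 8.81, 10.3, 3.93 and 7.02 FPKM in abdomen, at 5.69, 3.83, 4.70 and 4.86 in back and at 6.78, 6.23, 8.82 and 9.20 in cheek. Abdomen and cheek spread widely, the libraries overlapped in both, and in back each wound was below every unwounded library. On average Grem1 fell by 0.61 ± 0.13 (adjusted p = 0.00154; exact permutation p = 0.00537), and 11 of 12 mice had less in the wound. It fell by 0.93 ± 0.23 in abdomen (adjusted p = 0.00915), and differed by -0.48 ± 0.23 in back (adjusted p = 0.102) and by -0.41 ± 0.23 in cheek (adjusted p = 0.174). The exception was cheek mouse 4, the library with 3331 FPKM of growing follicle markers, where Grem1 was higher in the wound by 0.81. Without that mouse the cheek difference was -0.82 (adjusted p = 0.000574) and the back difference passed the test as well (adjusted p = 0.00364), as it did with the back libraries fitted alone (adjusted p = 0.00656). Without the 3 mice with growing follicle markers both passed as well (cheek adjusted p = 0.00712, back adjusted p = 0.0268). The part of follicle growth in these values was not tested. In unwounded skin Grem1 was lower in back than in abdomen by 0.99 ± 0.32, with overlapping libraries, which passed the test without cheek mouse 4 (adjusted p = 0.037) and with all 24 libraries in the model (adjusted p = 0.036) but not otherwise (adjusted p = 0.118).

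Chrdl1, chordin-like 1, is a chordin relative that binds Bmp4 and other ligands. It stood at 4.68, 8.14, 8.64 and 5.80 FPKM in unwounded abdomen, at 4.38, 7.93, 10.6 and 10.1 in back and at 3.52, 6.56, 3.89 and 2.68 in cheek. In wounds it stood at 2.25, 3.69, 2.2 and 3.72 FPKM in abdomen, at 7.62, 4.10, 4.79 and 6.90 in back and at 4.67, 2.40, 3.87 and 2.53 in cheek. Wounds were below all unwounded libraries in abdomen only. Chrdl1 fell by 0.58 ± 0.18 on average (adjusted p = 0.0129; exact permutation p = 0.02), with 10 of 12 mice lower, and by 1.07 ± 0.31 in abdomen (adjusted p = 0.0199). It differed by -0.43 ± 0.31 in back and by -0.25 ± 0.31 in cheek (adjusted p = 0.274 and 0.558), and the back difference passed the test without back mouse 1 (-0.82, adjusted p = 0.036). The abdomen call was lost without abdomen mouse 2 (adjusted p = 0.0531) or mouse 3 (-0.85, adjusted p = 0.0952), and the average call without the 3 mice with growing follicle markers (-0.61, adjusted p = 0.0603).

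Id1, an inhibitor of DNA binding by basic helix-loop-helix factors, is a direct target of the BMP Smads. It was the most abundant of the 9 genes, at 65.2, 48.2, 75.5 and 44.2 FPKM in unwounded abdomen, 40.6, 41.7, 39.6 and 39.3 in back and 49.3, 49.8, 77.0 and 52.7 in cheek. In wounds it stood at 81.7, 54.7, 72.3 and 38.2 FPKM in abdomen, at 53.2, 48.2, 61.1 and 42.8 in back and at 44.9, 46.6, 66.8 and 57.1 in cheek. The back libraries were the tightest and lowest of the unwounded groups and lay below all their wounds. Averaged over the sites the difference was 0.10 ± 0.06 (adjusted p = 0.135), with 7 of 12 mice higher in the wound. Id1 rose by 0.33 ± 0.10 in back (adjusted p = 0.0167) and differed by 0.06 ± 0.10 in abdomen (adjusted p = 0.682) and by -0.08 ± 0.10 in cheek (adjusted p = 0.57). The back call was lost after median-ratio scaling (0.26, adjusted p = 0.0709), after quantile normalization (0.20, adjusted p = 0.145), without a term per mouse (adjusted p = 0.202) and without back mouse 1 or 3 (adjusted p = 0.0551 and 0.107). Over all genes the split in back was 4044 higher and 2578 lower, against 3427 and 3324 after median-ratio scaling and 3005 and 3692 after quantile normalization.

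Between sites of unwounded skin, Nog, Bmp6 and Id1 had libraries that did not overlap in some pair. Back and abdomen did not overlap for Nog and Id1 (13.3% of all genes), and cheek and abdomen for Nog and Bmp6 (10.6%). Cheek and back did not overlap for Id1 (14.6%). Nog was higher in back and cheek than in abdomen, Bmp6 higher in cheek than in abdomen, and Id1 lower in back than in both other sites. These shares are per pair, and the share of all genes over any pair is not given. Bmp6 was higher in cheek than in abdomen by 0.54 ± 0.14 (adjusted p = 0.0574), which passed the test without back mouse 2 (adjusted p = 0.0497) and with all 24 libraries in the model (adjusted p = 0.043). Id1 was lower in back than in abdomen by 0.49 ± 0.18 and than in cheek by 0.47 ± 0.18 (adjusted p = 0.138 and 0.165). By mean level the order was cheek, back, abdomen for Nog and Bmp6, abdomen, cheek, back for Bmp2, Bmp5, Grem1 and Id1, cheek, abdomen, back for Bmp4 and Bmp7 and back, abdomen, cheek for Chrdl1. Of the neighbours in these orders, only back and abdomen for Nog and cheek and back for Id1 had libraries that did not overlap.

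Between wounds of the 3 sites, limma called 0 of the 8 members tested, where 12.2% of 14023 genes were called in at least 1 pair, and 4 members had an unadjusted p under 0.05 in some pair, as had 47.3% of all genes. Bmp5 did not pass the filter on low values among wounds. Libraries did not overlap for Bmp7, lower in back than in abdomen by 0.28 ± 0.10 (adjusted p = 0.19), nor for Chrdl1, higher in back than in abdomen by 0.87 ± 0.25 (adjusted p = 0.102), and 9.16% of all genes did not overlap in that pair. Nog was higher in cheek than in back wounds by 0.59 ± 0.18 (adjusted p = 0.0828) and Grem1 by 0.64 ± 0.24 (adjusted p = 0.123), again without overlap, as were 21.3% of all genes. Each of these separations gave the smallest exact permutation p, 0.0286. Without abdomen mouse 1 the Nog difference passed the test (adjusted p = 0.0438), and without abdomen mouse 3 the Grem1 difference did (adjusted p = 0.0389).

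Whether the wound response differed between sites was tested by a moderated F test. It called 0 of the 9 members (3 genes in all, 0.0208% of those tested), with 4 members at an unadjusted p under 0.05, as were 12.9% of all genes. The lowest adjusted p of a member was 0.251, for Bmp5, and that of Nog was 0.278. A call at 1 site and none at another is thus no test of a difference in response.

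The other genes of the pathway were followed in 7 lists of 55 genes, of which 53 were in the table and 43 passed the filter in the wound comparison. Averaged over the sites, 10 of the 43 rose and 23 fell, with a median of -0.24 against 0.02 for all genes tested. In the same comparison 33.3% of all genes were called higher and 29.4% lower. These shares are also the background for the wound counts of each list below. After quantile normalization 5 rose and 27 fell. The ligand Bmp3, which opposes other BMPs, fell by 0.76 ± 0.13 (adjusted p = 0.000247), and Gdf10 by 0.51 ± 0.19 (adjusted p = 0.0362), the latter call lost in 7 of 12 cases with a mouse left out and without the 3 mice with growing follicle markers (-0.43, adjusted p = 0.149). Of the 9 other antagonists tested, 2 rose and 6 fell. Bmper, which binds BMPs outside the cell, rose by 0.23 ± 0.09 (adjusted p = 0.0357), a call lost after median-ratio scaling (adjusted p = 0.0697), after quantile normalization (adjusted p = 0.129), without the 3 mice with growing follicle markers (adjusted p = 0.161) and in 7 of 12 cases with a mouse left out. The follistatin relative Fstl1 rose by 0.34 ± 0.09 while Fstl3 fell by 0.29 ± 0.05. Dand5, a cerberus relative, fell by 0.38 ± 0.11.

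Of 10 receptors, 4 were called higher and 5 lower, but after median-ratio scaling 2 were higher and 6 lower, and after quantile normalization 1, Eng, was higher and 6 lower. The smallest rises, of Acvr1 and Acvrl1, were not called under either scaling. With a mouse left out, the call of Acvr1 was lost in 8 of 12 cases and that of Acvrl1 in 9 of 12. Acvrl1 also lost its call with no filter on low values (adjusted p = 0.0609) and without the 3 mice with growing follicle markers (adjusted p = 0.0638). Eng, the endothelial co-receptor endoglin, rose by 0.73 ± 0.06 (adjusted p = 5.22e-07), its mean going from 30.0 to 47.6 FPKM in abdomen, 31.1 to 54.2 in back and 33.1 to 54.7 in cheek. The type II receptor Acvr2b fell by 0.70 ± 0.07 (adjusted p = 3.61e-06), and the co-receptor Rgmb fell by 0.54 ± 0.06 (adjusted p = 5.79e-06). The type I receptor Bmpr1b rose by 0.27 ± 0.08, a call lost after quantile normalization (0.16, adjusted p = 0.111). All 5 endothelial markers were called higher in wounds as well, their sum going from 68.5 to 101.9 FPKM over unwounded libraries to 103.5 to 134.5 over wounds, and the part of endothelium in the rise of Eng was not tested. Of the Smads that carry the signal, Smad1 rose by 0.15 ± 0.04, a call lost after quantile normalization (adjusted p = 0.0757), and Smad5 and Smad9 fell by 0.25 ± 0.06 and 0.37 ± 0.08. Among inhibitors inside the cell, the ubiquitin ligase Smurf1 rose by 0.33 ± 0.05, and Smad6 and Smurf2 fell by 0.26 ± 0.08 and 0.23 ± 0.06, that of Smad6 not called without the 3 mice with growing follicle markers (adjusted p = 0.0646).

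Of the 8 targets other than Id1, 0 were called higher and 4 lower, and without the 3 mice with growing follicle markers 1 was called higher, Atoh8 (0.24, adjusted p = 0.0322), and 3 lower. Msx2, a homeobox gene of follicle and nail, fell by 0.96 ± 0.27 (adjusted p = 0.00849), and by 0.69 without cheek mouse 4, and its relative Msx1 fell by 0.43 ± 0.16 (adjusted p = 0.0311), a call lost without cheek mouse 4 (-0.30, adjusted p = 0.0504), 3 other mice in turn, or the 3 mice with growing follicle markers together (-0.20, adjusted p = 0.207). Id3 and Id4 were the other 2, falling by 0.38 ± 0.06 and 0.42 ± 0.08, while Id2 differed by 0.03 ± 0.08. Among proteases that cut BMP precursors or chordin, Furin rose by 0.59 ± 0.06 (adjusted p = 2.8e-06) and Bmp1, the chordin-cutting metalloprotease, by 0.38 ± 0.09 (adjusted p = 0.00176), and the convertase Pcsk6 fell by 0.58 ± 0.06 (adjusted p = 2.05e-06). Between unwounded sites the only call among 42 listed genes was Fstl3, where 4.92% of all genes were called in at least 1 pair. It was lower in cheek than in abdomen by 0.53 ± 0.11 (adjusted p = 0.0313), where 1.23% of all genes were called lower. This call was lost in 4 of 12 cases with a mouse left out and without the 3 mice with growing follicle markers (adjusted p = 0.0606). Between wounds 7 of 42 were called for cheek against abdomen (10.8% of all genes), 3 for cheek against back (2.5%) and 2 for back against abdomen (1.27%). Over all genes the splits were 1054 higher and 465 lower for cheek against abdomen (705 and 689 after median-ratio scaling) and 267 and 84 for cheek against back (75 and 101). The 3 calls for cheek against back, Sostdc1, Bmpr1a and Acvr2a, were all lost under that scaling (adjusted p = 0.0862, 0.0711 and 0.0661) and after quantile normalization. They were lost as well without the 3 mice with growing follicle markers (adjusted p = 0.229, 0.213 and 0.189). The 2 calls for back against abdomen, Bmper and Msx1, were lost in 9 and 11 of 12 cases with a mouse left out. Both were also lost with all 24 libraries in the model (limma adjusted p = 0.0669 and 0.28). The same held without the 3 mice with growing follicle markers (adjusted p = 0.152 and 0.171). Only Id3, lower in cheek than in abdomen wounds by 0.57 ± 0.10 (adjusted p = 0.0102), and Bmper, higher by 0.64 ± 0.13 (adjusted p = 0.0163), held that call with any of the 12 mice left out, and both lost it without the 3 mice with growing follicle markers (adjusted p = 0.11 and 0.138).

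**Figure D5:**
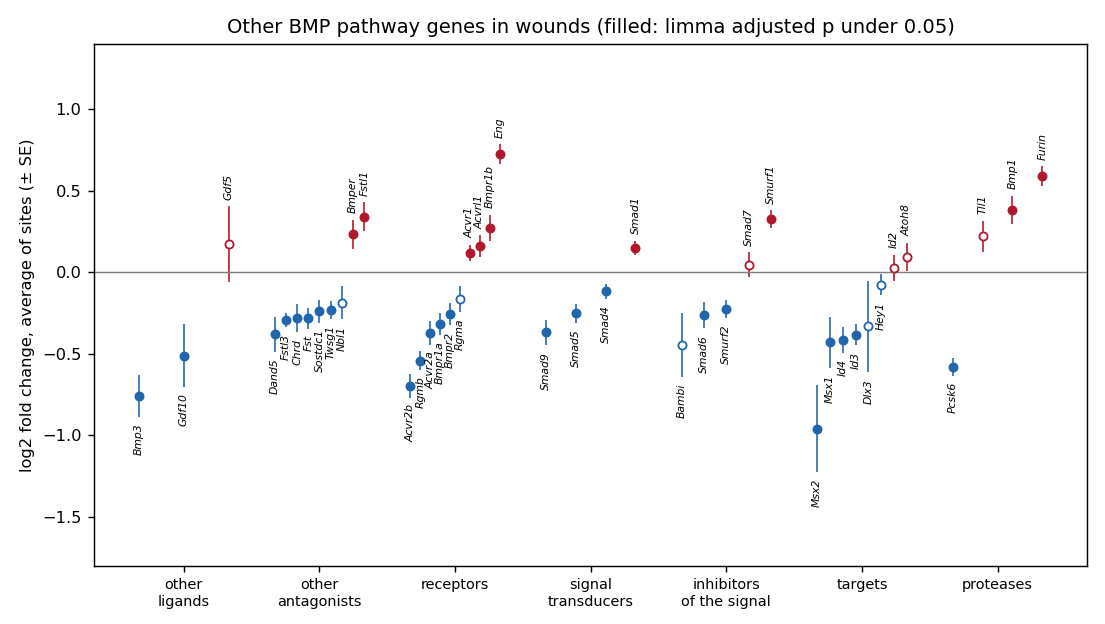
Difference between wound and unwounded skin averaged over the sites (log2(FPKM + 0.5), points with SE bars) for the 43 other pathway genes tested, grouped by role and filled where the adjusted p was under 0.05. Of the filled points 23 lie below 0 and 10 above, with Msx2 at -0.96 and Eng at 0.73 as the extremes.

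Cell type markers moved with wounding too, and no marker was at 0 throughout a group. In bulk skin, fewer cells of a type and less RNA per cell cannot be told apart. Averaged over the sites, 3 of 5 epidermal markers, 5 of 5 endothelial, 5 of 5 neutrophil and 5 of 5 macrophage markers rose, and 5 of 5 muscle and 5 of 5 fat markers fell. Among fibroblast markers 1 rose and 3 fell, among dermal papilla markers 1 rose and 3 fell, and of the growing follicle markers 0 of 5 was called. Summed fibroblast markers ranged from 6606 to 17567 FPKM in unwounded skin (10236 to 14349 in abdomen, 11874 to 17567 in back, 6606 to 11190 in cheek) and were 6363 to 9216, 6240 to 8857 and 3940 to 7382 in the wounds. Fat markers summed to 709.2 to 1053, 750.3 to 1263 and 426.8 to 932.3 FPKM in unwounded abdomen, back and cheek and to 402.7 to 502.5, 459 to 566.6 and 342 to 787.3 in wounds. Neutrophil markers went from 8.18 to 37.6, 9.15 to 20.9 and 8.39 to 12.5 FPKM to 344 to 2388, 1039 to 1537 and 553.4 to 1374. Macrophage markers summed to 257.6 to 520.6 FPKM over unwounded libraries and to 498.2 to 817 over wounds, and dermal papilla markers to 18.0 to 54.0 and 86.9 to 212.6, the latter carried by Crabp1, the 1 marker of that list that rose (38.8 to 97.7 FPKM in abdomen, 15.9 to 109.5 in back and 33.1 to 159.5 in cheek, means of 4). Epidermal markers summed to 5395 to 10167 FPKM over all unwounded libraries and to 10095 to 18236 over wounds. The part of these changes in the fall of the ligands and antagonists was not tested.

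As a description, members were compared with each other and with 13060 genes of at least 1 FPKM over the 24 libraries, which share their groups, composition and scaling. Bmp2 and Bmp4 went together with r = 0.89 in levels and 0.77 in deviations from the group means, and Bmp2 and Bmp6 deviated together with r = 0.78. Bmp6 and Nog reached r = 0.825 in levels but 0.27 in deviations. The genes most like Bmp4 in level were Foxo1 (r = 0.962), Nectin3 (0.950) and Cldn3 (0.949), and Foxo1 was also the closest in deviations (0.879). Those most like Nog were Coq10a (0.948), Kbtbd12 (0.947) and Slc2a4 (0.945), and those most like Grem1 were Gem (0.863), P3h2 (0.853) and Gk5 (0.853). Chrdl1 was closest to Larp6 (0.871), Bmp7 to Sfrp1 (0.864), Bmp6 to Cdip1 (0.897), Bmp2 to Nectin3 (0.903), Bmp5 to Rasa2 (0.832) and Id1 to Hs3st3b1 (0.769).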

How the data were processed

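Whole skin of 12 CD1 mice was sequenced as 24 libraries, a wound and an unwounded library per mouse. Per the study's methods and the labels, a provider filtered paired reads, mapped them to GRCm38 with HISAT2 and Bowtie2 (2.2.5) and quantified them per library with RSEM (1.2.12). The authors deposited these FPKM values without scaling between libraries, and 0 per-sample columns were left unused. A second deposited table, of DESeq2 comparisons (log2 ratios with adjusted p), was not used.

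Models were fitted to log2(FPKM + 0.5) in limma 3.58.1 (statmod 1.5.0, R 4.3.3) with trended, robust moderation. Genes entered a model with 0.5 FPKM or more in 4 or more of its libraries, and p-values were adjusted over all genes tested (Benjamini-Hochberg, threshold 0.05). Sites were compared within the 12 unwounded and the 12 wound libraries, and wound effects over 24 libraries with a term per mouse. The pairing comes from the labels, which give both libraries to 1 mouse. Deviations from group means correlated within a mouse (mean r for abdomen 0.322, back 0.348, cheek 0.281, lowest -0.03) more than between mice (-0.108, -0.116 and -0.0958). The values between mice follow largely from those within a mouse, since deviations cancel out within a group, and add no separate evidence. The models for unwounded sites and for wounding were run on simulated data, with independent noise per library and a shift in cheek only. The simulation held no mouse effect and no fit between wounds, so it does not check the term per mouse. Single values had exact permutation tests, whose smallest p is 0.029 for 4 against 4 libraries, 0.125 for 4 mice and 0.000488 for 12.

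Depth is unknown from FPKM. The 9 members and the gene lists were chosen with earlier results of these data known. Pathway genes were to be named as at most the 2 largest rises and 2 largest falls of a list in the average wound effect and at most 2 per list called between sites. Beyond that rule, Id2 and Id4 were added after their values were seen. Acvr1, Acvrl1 and Atoh8 are named because their calls changed with the setting. Sostdc1 is named beside Fstl3 and Bmper among the antagonists called between sites. Each member's likest genes were named by Pearson's r. Alternatives were other pseudocounts, filters, scalings, moderation, thresholds and model terms, and each mouse left out. A gene of the pathway lists is not reported here.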

Additional observations from a re-analysis of the deposited data

Results flagged for a closer look

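Of 54 groups of 4 values (9 genes in 6 groups), 3 held a value far from the other 3 of its group by Dixon's criterion, which flags about 1 in 20 groups by chance. In unwounded cheek, mouse 3 had the highest Bmp2 at 7.52 FPKM, where the other mice had 6.45 to 6.59. The same library had the highest Id1 at 77.0 FPKM, against 49.3 to 52.7 in the others. In abdomen wounds, mouse 1 had the lowest Bmp4 at 3.73 FPKM, where the others had 7.07 to 7.74.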

How the results depend on the processing

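The directions of all called member differences held under every alternative run. Of the counts of members called, that between unwounded sites went from 1 to 0 at the 0.001 threshold and to 3 with all 24 libraries in a model of 6 groups, and lay between 1 and 2 with a mouse left out (2 without back mouse 2 or cheek mouse 4). Between wounds it lay between 0 and 1 with a mouse left out (1 without abdomen mouse 1 or 3). For wounding, the threshold of 0.001 gave 0 in place of 5 in abdomen, 2 in place of 5 in back, 2 in place of 5 in cheek and 5 in place of 8 on average, and the counts with a mouse left out were 3 to 6 in back (3 without mouse 2) and 3 to 6 in cheek (3 without mouse 3), 4 to 5 in abdomen and 8 on average. Of the other pathway genes, 3 in place of 10 were called higher and 8 in place of 23 lower at 0.001, and 5 higher after quantile normalization. Leaving out the replicate block of mice called 5, 4, 5 and 8 members in abdomen, back, cheek and on average. The numbers of mice at different sites do not pair them, and with them as a block the count between unwounded sites was 1, although the back against abdomen call of Nog was lost. FPKM limit the precision, since counting error cannot be separated from the spread between mice. Alternatives added after seeing the data left out the 3 mice with growing follicle markers and called 1, 0, 5, 4, 4, 7 and 0 members in the order unwounded sites, wounds, abdomen, back, cheek, average and F test. For the fits with mice left out, without the replicate block or with other model terms, the shares of all genes called are not given. Their counts are thus not set against a background.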
